A study of Mus musculus with 12 samples.

Results

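The genes described here are 46 genes of mouse chromosome 18 that lie on both sides of Ppargc1b, the gene of the transcriptional coactivator PGC-1beta. They were chosen by their place on the chromosome, with earlier results of these data known. Of the 46, 43 had at least 1 probe set annotated with that single gene symbol, 96 probe sets in all, out of 34945 single-gene probe sets for 18193 genes on the array. Slc27a6, Arhgef37 and Ndst1 had none and are named only. The 46 are not every gene of the stretch: the GRCm38.p6 gene tables list 84 protein-coding genes between the first and the last of them, and 511 on the chromosome. Genes of the stretch that are not on the list but were called in a tissue, such as Iigp1 and Rps14, are described below.

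RNA was measured on Affymetrix Murine 430 2.0 arrays in 4 groups of 3 arrays each: liver of PGC1beta mutant C57BL/6 mice, liver of C57BL/6 control mice, quadriceps muscle of PGC1beta mutant C57BL/6 mice and quadriceps muscle of C57BL/6 control mice. The series title calls the mutation hypomorphic, that is, one that lowers the function of a gene without abolishing it. The labels do not say how the allele was made, in which strain it arose, for how many generations it was crossed, how old the mice were, or whether the arrays of a group came from separate mice. The p-values therefore measure the spread between these arrays, which may be technical.

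When an allele made in cells of another strain is crossed into a standard strain, the stretch of chromosome around it is inherited with it, and the genes in that stretch can keep sequence differences of the donor strain. Such linked differences can change the level of a transcript in cis, and they can also change how well a short array probe binds it. They are carried by every cell of the mutant animal, whatever the tissue. The comparison asked here is whether mutant and control differ more for genes close to Ppargc1b, and in liver and muscle alike.

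Places are given as gene order, the number of protein-coding genes counted from Ppargc1b in GRCm38.p6, with a minus sign on the side towards the centromere (proximal) and none on the other (distal). The genes fell into 3 blocks: a proximal block of 18 genes at order -52 to -25, a near block of 20 genes at order -19 to 12, and a distal block of 8 genes at order 19 to 31. The numbers with a probe set were 17, 18 and 8. A gene was tested in a tissue if its mean there exceeded the 40th percentile over every probe set, which held for 36 of the 46 genes in liver, 37 in muscle and 35 in both. Levels are normalised probe set intensity, differences are mutant minus control on the scale log2(intensity + 16), and a gene was called where the Benjamini-Hochberg adjusted p of limma over all genes of the tissue was below 0.05.

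The arrays of a tissue correlated with one another at 0.955 to 0.969 in liver and 0.969 to 0.977 in muscle. Before normalisation the medians of the arrays spanned 27.2 to 40.1 for liver and 20.1 to 22.3 for muscle. The log2 ratio of the 3′ to the 5′ control probe sets, a sign of RNA quality, was 0.904 to 1.90 on the mutant liver arrays and 0.496 to 0.965 on the control liver arrays. Mutant liver arrays 1 (1.90) and 3 (1.87) lay above every control, while mutant array 2 (0.904) lay below control array 2 (0.965). In muscle the ratio overlapped too, at 0.325 to 0.556 on mutant and 0.40 to 0.520 on control arrays. The summed intensity of 9 hepatocyte markers was 84863 to 93880 in mutant liver and 99904 to 103159 in control liver, and that of 10 skeletal muscle markers was 96700 to 103264 in mutant muscle and 98876 to 99849 in control muscle, so each tissue expressed its defining genes. The hepatocyte sums did not overlap between the genotypes, and 1 of the 9 markers was called lower in mutant liver. The 10 macrophage and Kupffer cell markers summed to 3662 to 4756 in mutant liver and 2318 to 3219 in control liver, without overlap, and 3 of the 10 were called higher. In whole tissue, fewer cells of a type and less RNA per cell cannot be told apart.

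Ppargc1b itself had 1 probe set, 1449945_at, whose position relative to the mutated part of the gene no source used here states. Its intensity was 404, 494 and 203 in mutant liver, against 547, 283 and 481 in control liver, a log2 difference of -0.28 (SE 0.317, adjusted p = 0.691). In muscle it was 423, 280 and 271 in mutants, against 302, 285 and 332 in controls, a difference of 0.06 (SE 0.167, adjusted p = 0.997). The groups overlapped in both tissues, so this probe set neither separates the genotypes nor checks the labels.

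In liver, calls were about as rare among the flanking genes as among all genes. In liver 1 of the 36 tested genes was called, Sec11c, against 3.35% of all 13326 genes tested (447 genes, 310 or 2.33% higher and 137 or 1.03% lower). In muscle 0 of the 37 were called by limma, against 0.0152% of all 13131 genes tested, which is 2 genes. At so low a share, 0 of 37 says little. Those 2 genes, Iigp1 and BC023105, lie inside the stretch but are not on the list, and are described below. An unadjusted limma p below 0.05 was found for 3 of the 37 in muscle (8.11%), against 4.26% of all genes. In liver it was found for 7 of the 36 (19.4%), against 19.6% of all genes. The median difference over the flanking genes was -0.00 in liver, where it was 0.01 over all genes, and -0.00 in muscle, where it was also -0.00 over all genes. The median size of a difference was 0.26 in liver and 0.12 in muscle, beside 0.24 and 0.13 over all genes. Positive and negative differences were evenly split, with 18 of 36 above 0 in liver and 18 of 37 in muscle.

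**Figure D1:**
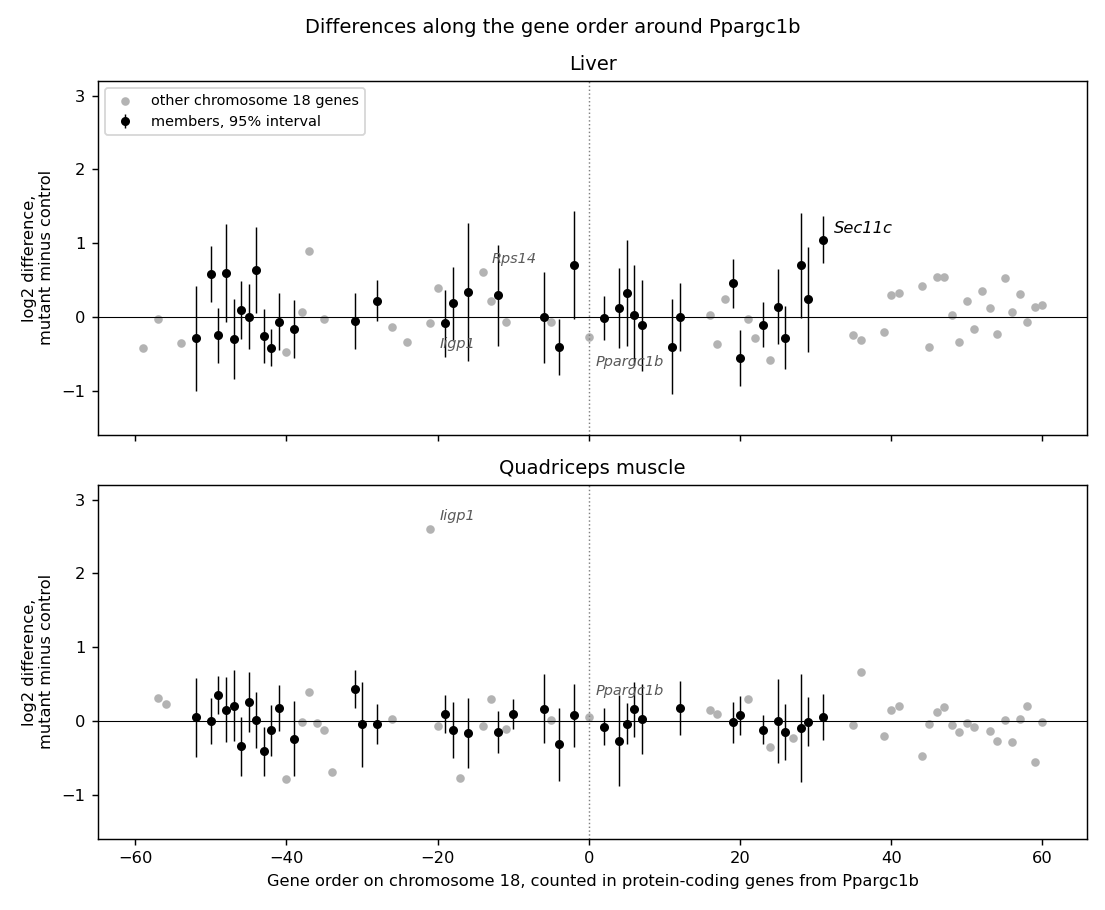
Log2 difference of intensity, mutant minus control, against gene order from Ppargc1b (dotted line) in liver and in quadriceps muscle. Black points are the flanking genes with their 95% interval and grey points the other tested protein-coding genes of the chromosome within 60 genes: Sec11c stands at 1.05 in liver and Iigp1 at 2.60 in muscle, while the flanking genes in muscle lie between -0.41 and 0.44.

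Sec11c is a catalytic subunit of the signal peptidase complex, which removes signal peptides from proteins entering the endoplasmic reticulum, and at order 31 it was the gene of the 46 farthest out on the distal side. Its intensity was 719, 616 and 754 in mutant liver, against 322, 312 and 350 in control liver. The groups did not overlap, with the lowest mutant array at 616 and the highest control array at 350. The log2 difference was 1.05 (SE 0.145, 95% interval 0.72 to 1.37, adjusted p = 0.0180), a 2.06-fold higher level.

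In muscle Sec11c was 131, 109 and 122 in mutants, against 129, 116 and 104 in controls, a difference of 0.05 (SE 0.141), with overlapping groups. The difference between the tissues, liver minus muscle, was 1.00 (SE 0.191, adjusted p = 0.0268), and Sec11c was the only 1 of the 35 genes tested in both tissues to pass that test, against 1.42% of all 11841 genes (1.16% with the higher value in liver). The call in liver rests on few arrays. The adjusted p was 0.116 without mutant array 1, 0.0506 without mutant array 3, 0.0516 without control array 1 and 0.0510 without control array 2, at differences of 0.98 to 1.05. With the arrays' 3′ to 5′ ratio in the fit the difference was 0.91 (adjusted p = 0.374). The second probe set of the gene, 1440378_at, was dimmer and showed -0.07 in liver, with 45.8, 63.2 and 72.5 in mutants, against 61.8, 66.2 and 61.9 in controls, and the average of both probe sets gave 0.49 (adjusted p = 0.116).

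**Figure D2:**
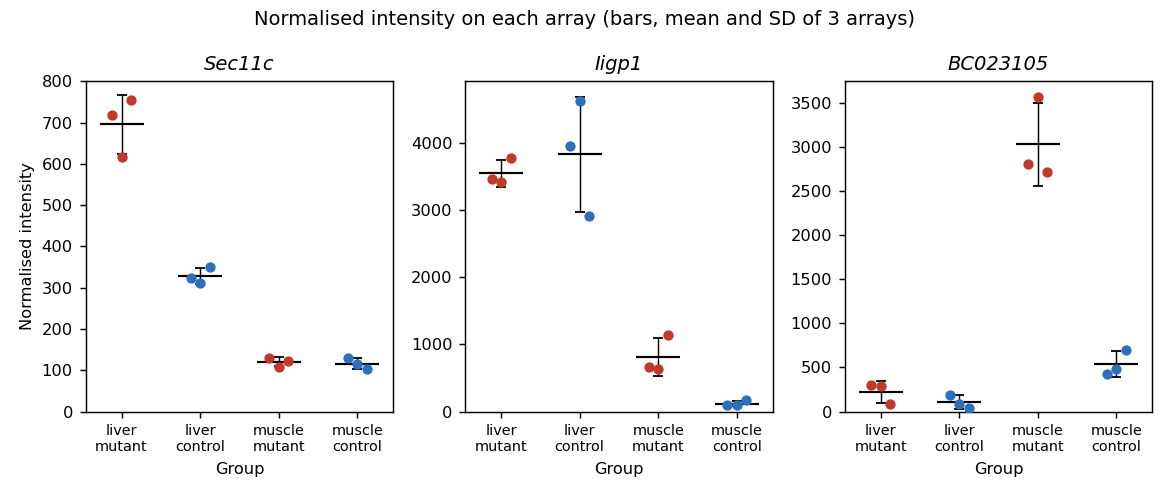
Normalised intensity of Sec11c, Iigp1 and BC023105 on each of the 12 arrays, with the mean and SD of 3 arrays per group. Each gene is shown by its brightest probe set. Sec11c is separated in liver only, at 616 to 754 in mutants and 312 to 350 in controls, and Iigp1 and BC023105 are separated in muscle only.

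The genes nearest to Ppargc1b showed no call in either tissue. On the proximal side these were Pde6a, Slc26a2 and Hmgxb3, and on the distal side Csnk1a1, Il17b and Pcyox1l, with the unmeasured Arhgef37 between Ppargc1b and Csnk1a1. Pde6a, a subunit of the phosphodiesterase of rod photoreceptors, and Il17b, a cytokine of the interleukin-17 family, were below the filter in both tissues. Pde6a read 15.8, 14.9 and 4.32 in mutant liver and 14.4, 16.9 and 4.40 in control liver, and 13.3, 23.8 and 1.90 in mutant muscle and 11.1, 1.60 and 6.80 in control muscle. Il17b read 2.28, 5.20 and 2.18 in mutant liver and 4.10, 5.50 and 2.12 in control liver, and 4.68, 3.48 and 4.47 in mutant muscle and 2.25, 4.10 and 3.98 in control muscle. At such intensities no difference is detectable.

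Slc26a2, a sulphate transporter, read 59.8, 61.1 and 21.5 in mutant liver, against 22.5, 24.5 and 17 in control liver. Mutant arrays 1 and 2 were high and mutant array 3 lay among the controls, so that the difference of 0.70 (SE 0.331) had an adjusted p of 0.28. In muscle it read 53.4, 77.0 and 76.8 in mutants, against 60.4, 51.8 and 82.8 in controls, a difference of 0.08 (SE 0.193). Hmgxb3, which encodes a protein with an HMG box, read 157, 140 and 174 in mutant liver, against 209, 186 and 249 in control liver. All 3 mutant arrays were below the controls there, by -0.41 (SE 0.171), with an adjusted p of 0.220. Its muscle values of 99.9, 79.3 and 70.1 in mutants overlapped those of 144, 71.3 and 116 in controls, at -0.32 (SE 0.222).

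Csnk1a1, the casein kinase that primes beta-catenin for breakdown, was the brightest of these neighbours and the most tightly bounded. It read 718, 684 and 760 in mutant liver, against 773, 669 and 746 in control liver, and 1370, 1086 and 1251 in mutant muscle, against 1159, 1320 and 1429 in control muscle. The difference was -0.02 in liver, with a 95% interval of -0.31 to 0.28, and -0.08 in muscle, with an interval of -0.33 to 0.18. Pcyox1l, a relative of the enzyme that breaks down prenylated cysteine, read 50.1, 32.6 and 57.5 in mutant liver, against 36.9, 39.6 and 46.3 in control liver (0.12, SE 0.244). In muscle it read 29.4, 19.6 and 20.8 in mutants, against 44.1, 40.6 and 14.4 in controls (-0.27, SE 0.277), and the groups overlapped in both tissues.

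A looser view counts the genes whose 3 mutant arrays all lay on the same side of the 3 control arrays. In liver that held for 8 of 36 flanking genes (22.2%), against 24% of all genes. In muscle it held for 7 of 37 (18.9%), against 9.54% of all genes, 4 higher and 3 lower beside 4.33% and 5.22% of all genes. The 7 muscle genes lay mostly in the proximal block, where they were 5 of 15 tested (33.3%), against 1 of 14 (7.14%) in the near block and 1 of 8 (12.5%) in the distal block. In liver the counts were 3 of 14, 1 of 14 and 4 of 8. In neither tissue was the block next to Ppargc1b the one with the largest share. These counts are descriptions of few genes and carry no test.

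**Figure D3:**
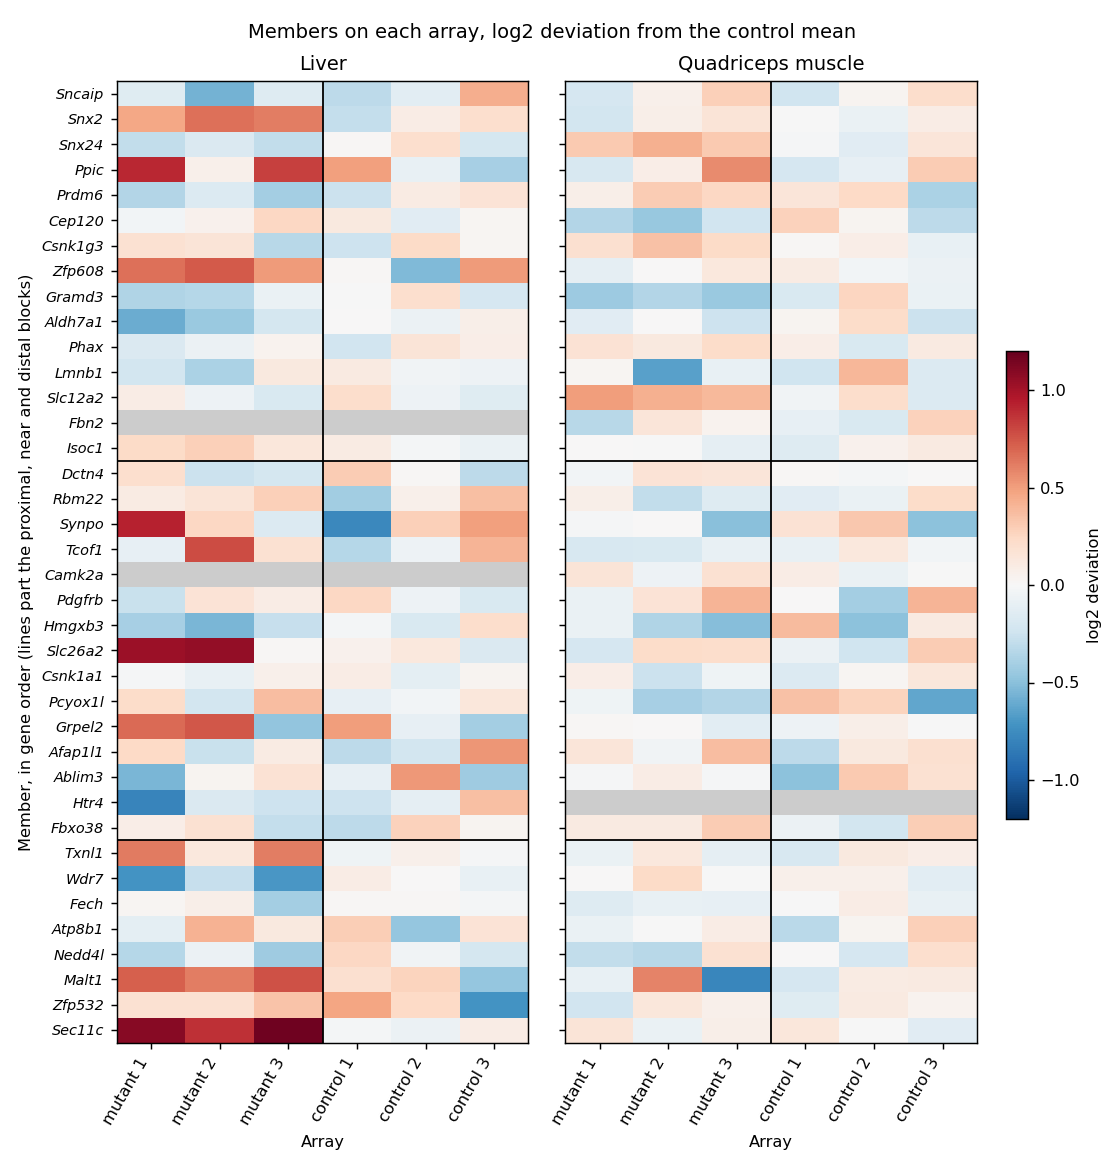
Log2 deviation of each tested flanking gene from its mean over the control arrays, in gene order from proximal at the top to distal at the bottom, with mutant arrays left of control arrays in each tissue. Grey rows were not tested in that tissue: Sec11c is raised on all 3 mutant liver arrays, and in muscle Slc12a2 and Snx24 are higher and Gramd3 lower on all 3 mutant arrays.

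In the proximal block the muscle differences ran in both directions. Slc12a2, the sodium-potassium-chloride cotransporter NKCC1, read 846, 801 and 783 in mutant muscle, against 574, 688 and 528 in control muscle. It was higher on all 3 mutant arrays, by 0.44 (SE 0.115), and had the smallest p of the 37 genes, 0.00348 unadjusted, but an adjusted p of 0.995 over all genes. In liver it was 166, 148 and 135 in mutants, against 183, 148 and 138 in controls (-0.05, SE 0.172).

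Snx24, a sorting nexin, which is a protein of membrane traffic with a lipid-binding domain, read 395, 429 and 397 in mutant muscle, against 313, 285 and 351 in control muscle (0.35, SE 0.117). Its liver difference had the other sign, -0.25 (SE 0.167). Gramd3, which encodes a GRAM domain protein, read 117, 124 and 115 in mutant muscle, against 142, 199 and 154 in control muscle (-0.41, SE 0.148), and in liver it differed by -0.26 (SE 0.163) with overlapping groups. The other proximal genes without overlap in muscle were the casein kinase Csnk1g3 (0.26, SE 0.181) and Phax, an adaptor for the export of small nuclear RNA (0.17, SE 0.139). None of the 5 was called in limma, at adjusted p of 0.995. The other probe set of Csnk1g3, 1429383_at, was the brighter one in muscle and had the other sign, -0.29 (SE 0.190) with overlapping groups, and the other one of Gramd3 gave -0.06.

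Outside the proximal block the muscle genes without overlap were Tcof1 in the near block, which encodes the nucleolar protein treacle (-0.15, SE 0.129), and Fech in the distal block, the ferrochelatase that completes haem synthesis (-0.12, SE 0.0903). For Tcof1 the other probe sets had the opposite sign: 1423601_s_at read 61.6, 75.9 and 56.5 in mutant muscle, against 48.2, 38.5 and 50.1 in control muscle, all mutant arrays above the controls (0.39, SE 0.171), and 1424643_at gave 0.35 (SE 0.204). Fech read 941, 985 and 982 in mutant muscle, against 1052, 1120 and 990 in control muscle, so that the nearest arrays were almost level.

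In liver the proximal genes that came closest to the threshold were Aldh7a1 and Snx2. Aldh7a1, an aldehyde dehydrogenase of lysine breakdown, read 3300, 3667 and 4335 in mutant liver, against 5024, 4772 and 5246 in control liver, and was lower on all 3 mutant arrays by -0.42 (SE 0.113, adjusted p = 0.0726). In muscle it was 162, 180 and 148 in mutants, against 184, 212 and 148 in controls (-0.13, SE 0.154). Snx2, a sorting nexin of the retromer, read 397, 457 and 441 in mutant liver, against 228, 302 and 327 in control liver (0.58, SE 0.170, adjusted p = 0.0882), and in muscle it read 139, 173 and 185 in mutants, against 164, 155 and 176 in controls (-0.00, SE 0.141). The muscle groups of Snx2 overlapped, and its difference between the tissues, 0.58 (SE 0.218, adjusted p = 0.208), did not pass.

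Isoc1, which encodes an isochorismatase domain protein, was the other proximal gene without overlap in liver (0.22, SE 0.125). Its other probe sets had both signs there. Zfp608, a zinc finger gene, read 80.2, 85.1 and 70.4 in mutant liver, against 45.3, 26.1 and 70.7 in control liver (0.64, SE 0.266, adjusted p = 0.220). Ppic, the peptidyl-prolyl isomerase cyclophilin C, read 95.6, 46.3 and 89.2 in mutant liver, against 67.8, 39.9 and 29.1 in control liver (0.60, SE 0.299, adjusted p = 0.309). Both overlapped, through a single control or mutant array.

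In the distal block 3 genes beside Sec11c were without overlap in liver, in both directions. Txnl1, a thioredoxin-like protein that binds the proteasome, read 1992, 1403 and 1981 in mutant liver, against 1243, 1343 and 1271 in control liver (0.46, SE 0.150, adjusted p = 0.127). Wdr7, a WD repeat protein, read 188, 262 and 191 in mutant liver, against 340, 321 and 299 in control liver (-0.56, SE 0.172, adjusted p = 0.102). Malt1, the paracaspase of antigen receptor signalling to NF-kappa-B, read 34.6, 30.9 and 36.1 in mutant liver, against 19.2, 21 and 6.28 in control liver (0.70, SE 0.320, adjusted p = 0.264). Mutant arrays 1 and 3 held the 2 highest values of Txnl1 and the 2 lowest of Wdr7, and these are also the 2 arrays with the higher 3′ to 5′ ratio. With that ratio in the fit the differences were 0.080 for Txnl1, -0.28 for Wdr7 and 0.42 for Malt1, while those of Aldh7a1 and Snx2 were -0.41 and 0.70, none of them called. In muscle the differences were -0.02, 0.08 and -0.09.

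The remaining genes tested gave differences between -0.31 and 0.33 in liver, apart from Htr4, a serotonin receptor, at -0.41 (SE 0.290), and between -0.35 and 0.21 in muscle. In the proximal block these were Sncaip (synphilin-1), Prdm6, Cep120 of the centrosome, Lmnb1 (a nuclear lamin) and, in muscle only, Fbn2 (a fibrillin). In the near block they were Dctn4 (dynactin), Rbm22 (a splicing factor), Synpo (an actin-binding protein), Pdgfrb (a platelet-derived growth factor receptor), Grpel2 (of mitochondrial protein import), Afap1l1, Ablim3, Fbxo38 and, in muscle only, Camk2a, and in the distal block Atp8b1 (a phospholipid flippase), Nedd4l (a ubiquitin ligase) and Zfp532. Camk2a, a calcium and calmodulin dependent kinase, had the highest intensity of the 46 in muscle, at 2001, 1721 and 2040 in mutants and 1907, 1699 and 1785 in controls (0.09, SE 0.0932). Its probe set 1437125_at had all 3 mutant muscle arrays below the controls, at 764, 661 and 684 in mutants and 831, 875 and 765 in controls (-0.22, SE 0.104, adjusted p = 0.989). Chsy3, Adamts19 and Sh3tc2 were below the filter in both tissues, as were Fbn2 and Camk2a in liver and Htr4 in muscle, with no group mean above 20 wherever a gene was below the filter.

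The flanking genes did not move together in liver and muscle. Of the 35 tested in both tissues, 14 (40%) had the same sign in both, beside 48.5% of all 11841 genes, and 0 were without overlap in the same direction in both tissues, beside 1.1% of all genes (130 genes). These counts use the brightest probe set of a gene. A dimmer one of Nedd4l, 1437400_at, was lower on every mutant array in both tissues. In muscle it read 48.0, 26.6 and 52.9 in mutants, against 62.6, 56.2 and 71.7 in controls (-0.47, SE 0.208, limma adjusted p = 0.989). In liver, where it was below the filter, it read 10.4, 13.3 and 6.28 in mutants, against 21.3, 21.95 and 19.7 in controls. Across the 35 genes the liver and muscle differences had a Pearson r of 0.03 and a Spearman rho of -0.01, given as a description across genes, which are not independent replicates. Liver and muscle share no arrays.

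Taken over both sides, the size of a difference had little rank correlation with distance from Ppargc1b in gene order. Across the flanking genes the Spearman rho between the absolute difference and the absolute order was 0.16 in liver (36 genes) and 0.09 in muscle (37 genes), and across all tested protein-coding genes of the chromosome it was 0.05 (313 genes) and -0.03 (316 genes). These values pool the sides of the locus and leave out BC023105, which has no place in this order. They need not show a block of differing genes on one side. These are descriptions, since neighbouring genes can share regulation and all share the same arrays.

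Over the whole chromosome in muscle, mutant and control arrays did not overlap for 51 of 336 genes (15.2%), which was the highest share of any chromosome, the others running from 6.91% to 11.5%. By order from Ppargc1b on either side the share was 8.33% of 24 genes at order 1 to 20, 27.9% of 43 at 21 to 50, 18% of 61 at 51 to 100 and 11.7% of 188 farther out. In liver the chromosome stood at 25.3%, within the range of the others (21.2% to 26.7%), and the shares by order were 20.8%, 19.5%, 27.9% and 26.7%. The muscle share was above the 9.54% of all genes in the bins from order 21 outwards. At order 1 to 20 it was 2 of 24 genes, close to that of all genes. When a gene's probe sets were averaged instead, the share at order 21 to 50 was 15.8% of 38 genes in muscle and 34.3% of 35 genes in liver.

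**Figure D4:**
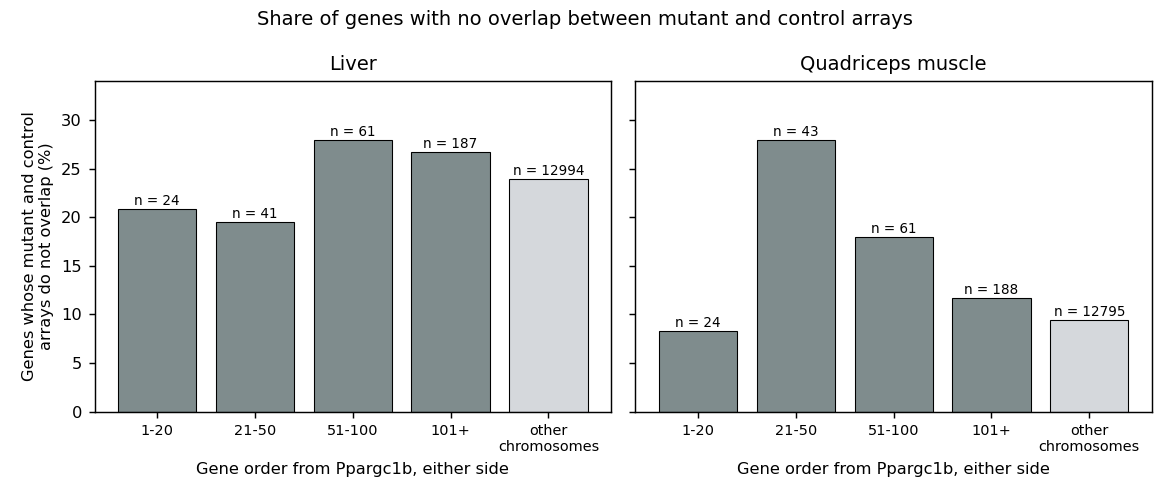
Percent of tested genes whose 3 mutant and 3 control arrays did not overlap, by gene order from Ppargc1b on either side, with all other chromosomes at the right and the number of genes above each bar. In muscle the bar for order 21 to 50 stands at 27.9% and that for order 1 to 20 at 8.33%, while the liver bars lie between 19.5% and 27.9%.

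The only 2 genes called in muscle among all 13131 tested lie inside the stretch although they are not among the 46. They are Iigp1, an immunity-related GTPase induced by interferon, at order -21, and BC023105, which the gene tables list as a pseudogene between Iigp1 and Smim3, so between Iigp1 and the flanking gene Dctn4. Iigp1 read 670, 629 and 1142 in mutant muscle, against 92.8, 99.3 and 168 in control muscle, a log2 difference of 2.60 (SE 0.250, adjusted p = 0.00704). BC023105 read 2805, 3568 and 2714 in mutant muscle, against 430, 487 and 703 in control muscle, a difference of 2.47 (SE 0.172, adjusted p = 0.000650). The lowest mutant array lay above the highest control array for both genes, at 629 against 168 for Iigp1 and 2714 against 703 for BC023105.

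In liver neither was called. Iigp1 was bright there, at 3455, 3408 and 3775 in mutants, against 3951, 4613 and 2908 in controls (-0.08, SE 0.153, adjusted p = 0.822), and its liver minus muscle difference was -2.68 (SE 0.326, adjusted p = 0.00354). BC023105 was dim, at 299, 288 and 81.7 in mutants, against 193, 84.6 and 38.2 in controls (1.01, SE 0.514, adjusted p = 0.314), and its difference between the tissues did not pass (-1.46, SE 0.621, adjusted p = 0.271). The second probe set of Iigp1, 1419042_at, read 164, 142 and 292 in mutant muscle, against 13, 35.7 and 41.2 in control muscle (2.22, adjusted p = 0.113 over all probe sets). In liver this probe set read 1128, 1238 and 1166 in mutants, against 985, 1062 and 784 in controls (0.32, SE 0.146, adjusted p = 0.277). Its liver groups did not overlap, as held for 22.3% of all probe sets. The Iigp1 call was lost in 4 of 18 alternatives: without control array 1 (adjusted p = 0.0634), without control array 2 (0.0804), with its probe sets averaged (0.131) and without the variance trend (0.162). The BC023105 call in muscle was lost in 2 of 18, without the variance trend (0.0512) and when all 12 arrays shared a fit (0.298). The summed macrophage markers of muscle overlapped between the genotypes, at 733 to 1261 in mutants and 891 to 1122 in controls, and no marker of that list was called there.

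No call was made for the genes around this pair. Smim3, at order -20, differed by -0.07 in muscle (SE 0.171), and the brightest probe set of Dctn4, at order -19, by 0.10 (SE 0.114), at 267, 308 and 303 in mutants and 276, 267 and 274 in controls. Gm4951, at order -24 and another GTPase gene of this family, was below the filter in muscle, at 18.8, 8.28 and 5.83 in mutants and 2.90, 17.2 and 11.4 in controls. Smim3 and Gm4951 were chosen after their values were seen.

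In liver 8 genes of the chromosome outside the 46 were called, 7 higher and 1 lower, among 296 tested. By smallest p these were the ribosomal protein gene Rps14 (order -14, 0.60), Ier3ip1 (order 88, 0.94), the peroxisomal enzyme gene Hsd17b4 (order -62, -0.73), the prefoldin subunit gene Pfdn1 (order -212, 0.94), the signal recognition particle gene Srp19 (order -251, 0.85) and C330018D20Rik (order -37, 0.90). Each of the 6 calls was lost in 8 to 12 of 19 alternatives, and all 6 with the 3′ to 5′ ratio in the fit, at adjusted p of 0.302 to 0.599. Of these 6, only Rps14 lay within 20 genes of Ppargc1b, and 2 lay more than 200 genes away.

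Probe sets of the same gene read different stretches of its transcripts, and over the flanking genes they did not always have the same sign. With every probe set as its own feature, 1 of 68 was called in liver, against 2.06% of all 27022 probe sets, and 0 of 77 in muscle by limma, against 0.0074%. At an unadjusted p below 0.05 there were 10 of the 68 (from 9 genes) in liver, against 17.9% of all, and 10 of the 77 (from 7 genes) in muscle, against 4.45% of all. Mutant and control arrays did not overlap for 11 of 68 probe sets in liver (16.2%, against 22.3% of all) and for 15 of 77 in muscle (19.5%, against 9.69% of all). Of the genes with several tested probe sets, all had the same sign in 9 of 17 genes in liver (52.9%, against 53.2% of 5618 genes over the array) and in 5 of 19 in muscle (26.3%, against 43.2% of 5732). The flanking genes among these had more probe sets each, 2.88 in liver and 3.11 in muscle on average, against 2.66 and 2.69 over the array.

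Isoc1, in the proximal block at order -28, was the only gene whose probe sets opposed each other with both at an unadjusted p below 0.05, in muscle. Probe set 1425050_at read 231, 228 and 253 in mutant muscle, against 92.7, 117 and 137 in control muscle, a difference of 0.96 (SE 0.152, adjusted p = 0.397). Probe set 1425051_at read 67.7, 77.8 and 69.8 in mutants, against 94.0, 105 and 111 in controls, a difference of -0.44 (SE 0.145, adjusted p = 0.989). Both were without overlap, in opposite directions, while the brightest probe set, 1425052_at, showed -0.04 (SE 0.125). In liver 1425050_at gave 0.18 (SE 0.295), 1425051_at -0.31 (SE 0.207) and 1425053_at -0.25 (SE 0.172), each with overlapping groups.

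Dctn4 had 2 dimmer probe sets that were higher on all 3 mutant muscle arrays although its brightest was not. Probe set 1420862_at read 112, 146 and 102 in mutant muscle, against 63.5, 67.8 and 81.4 in control muscle (0.64, SE 0.168), and 1420863_at read 43.5, 40.9 and 28.7, against 10.8, 18 and 19.1 (0.75, SE 0.214), both with an adjusted p of 0.989. Slc12a2 was more even in muscle, where its 3 probe sets gave 0.44, 0.11 and 0.32. Their liver differences were -0.05, -0.05 and -0.44. The last of these, 1448780_at, was higher on all 3 mutant arrays in muscle and lower on all 3 in liver (SE 0.257, limma adjusted p = 0.412 in liver). In liver the second probe set of Txnl1, 1423299_at, gave 0.59 (SE 0.132, adjusted p = 0.0504), beside 0.46 for the brightest, and a dim probe set of Lmnb1, 1423520_at, gave 0.88 (SE 0.326), beside -0.16 for the brightest. Other liver differences named above were smaller in another probe set: 0.09 for Zfp608 (1439485_at), 0.08 for Slc26a2 (1421145_at) and -0.10 for Hmgxb3 (1443950_at). For Aldh7a1 the others gave -0.07 (1448137_at) and -1.08 (1415902_at, SE 0.550). Each of these had overlapping liver groups.

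**Figure D5:**
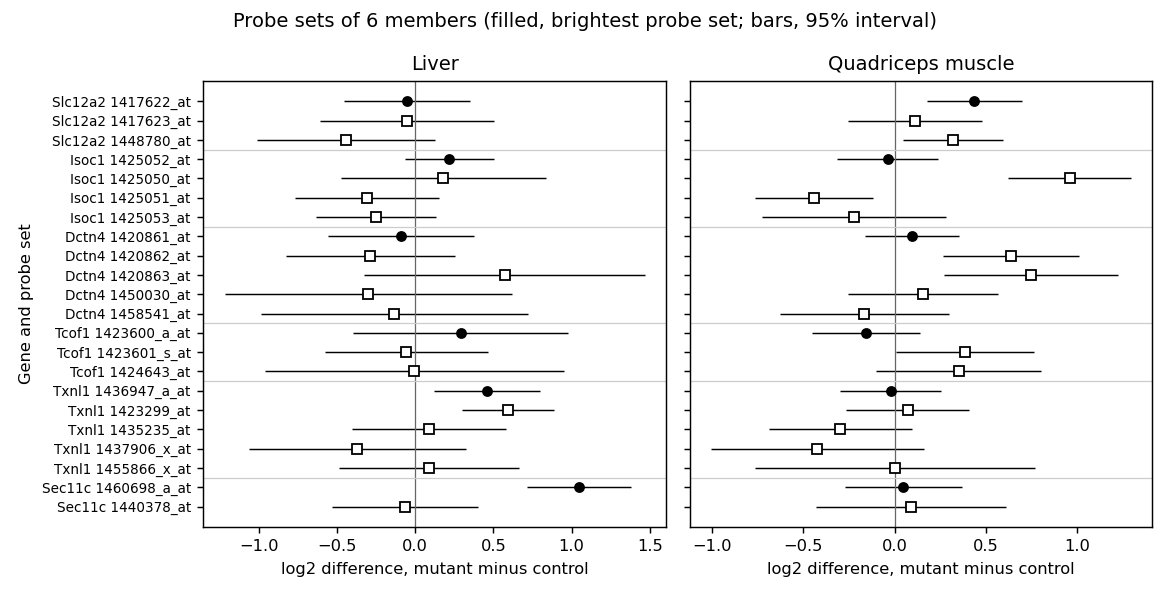
Log2 difference of intensity, mutant minus control, with 95% intervals for every tested probe set of 6 flanking genes in liver and quadriceps muscle; filled points mark the brightest probe set of a gene and open squares the others. In muscle the probe sets of Isoc1 range from -0.44 to 0.96 and those of Dctn4 from -0.17 to 0.75.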

How the data were processed

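Linear probe set intensity was used as deposited by the authors, 1 column per array. How these values were summarised and scaled is not stated in the sources used here; the labels' design text names d-Chip for clustering only. Symbols came from the platform annotation, and names and gene order from the GRCm38.p6 tables; the build of the array design is not given, so no coordinates are printed. Of 45101 probe sets 64 controls were left out; 9160 had no symbol and 932 had several. Array medians in liver differed by 0.56 on the log2 scale, above the bound of 0.2, so each tissue was normalised by quantiles on its own. The brightest probe set over all 12 arrays stood for a gene. limma 3.58.1 in R 4.3.3 was fitted to log2(intensity + 16) in each tissue, with a variance trend and 4 residual degrees of freedom, and to all 12 arrays for the difference between tissues. The fits were tested on simulated data. The offset understates changes of dim genes. The number of arrays limits the precision. Plots used matplotlib 3.10.9 (Python 3.11.15).

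The genes, lists and tests were chosen with earlier results of these data known. Described with all values were genes that passed a test and the 3 measured genes nearest Ppargc1b on each side; named with a difference were the 10 others with the smallest p, up to 6 other called genes of the chromosome per tissue, and genes whose probe sets opposed each other. Array numbers are not known to pair mutant with control arrays. Correlations of the deviations of arrays with the same number were -0.07 to -0.00 in liver and 0.02 to 0.14 in muscle, which cannot settle it. Alternatives covered offset, filter, scaling, variance trend, probe set rule, a replicate block, the threshold, the 3′ to 5′ ratio and arrays left out.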

Additional observations from a re-analysis of the deposited data

Results flagged for a closer look

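Of the flanking genes and the other named genes, 7 had a difference between mutant and control that itself differed between the tissues. The test was the limma interaction over all 12 arrays, with an adjusted p below 0.05. No count over the whole chromosome is given. The value is liver minus muscle on the log2 scale. Among the flanking genes it was 0.997 for Sec11c (SE 0.191, adjusted p = 0.0268), from 1.05 in liver and 0.05 in muscle. Among the other named genes it was 0.68 for Rps14 (SE 0.121, adjusted p = 0.0199), 0.89 for Ier3ip1 (SE 0.198, 0.0391), -0.75 for Hsd17b4 (SE 0.176, 0.0496), 0.86 for Pfdn1 (SE 0.20, 0.0489) and 0.83 for Srp19 (SE 0.182, 0.0390). These 5 were named because they were called in liver, and the same liver values enter this test, so passing it is not independent of that call. In muscle they differed by -0.08 to 0.08. Of 24 alternatives each, the call was lost in 12 for Sec11c, 9 for Rps14, 16 for Ier3ip1, 20 for Hsd17b4, 20 for Pfdn1 and 17 for Srp19, with adjusted p up to 0.502. For Iigp1 the value was -2.68 (SE 0.326, 0.00354), from -0.08 in liver and 2.60 in muscle, and the call was lost in 1 of 24, without the variance trend (0.0529). Iigp1 was named through its call in muscle, so the same limit holds for it.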

How the results depend on the processing

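The muscle count of 0 flanking genes called in limma held in every alternative run, with 2 to 6 genes at an unadjusted p below 0.05. Of 276 recomputed counts and block medians 190 stayed close to the reported value. Of 901 recomputed values of single genes 686 kept their sign and their side of the threshold, 169 lost a call, 6 gained one and 40 changed sign. The cause of these shifts was not tested. The number of arrays and the dim signal of some genes limit the precision of these counts.

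In liver 0 flanking genes were called by limma without the variance trend (9 at an unadjusted p below 0.05), with the mean of all probe sets (3), with the replicate block (7), with the 3′ to 5′ ratio in the fit (5) and without liver mutants 1 and 3 together (4), and 3 were called at a threshold of 0.1 and when all 12 arrays shared a fit. Leaving out an array gave 0 to 3: it was 3 without mutant 2, 1 without control 3 and 0 otherwise. For the difference between tissues the count of 1 became 0 with values as deposited, with median centring and in the 5 settings just named, and leaving out an array gave 0 to 2.

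Over all genes in liver the 447 calls became 219 with no filter, 297 with values as deposited, 164 with median centring, 0 without the variance trend (2332 at an unadjusted p below 0.05), 172 with the mean of probe sets, 11 with the replicate block, 1025 at a threshold of 0.1, 2 with the 3′ to 5′ ratio, 0 without mutants 1 and 3 (1088 unadjusted) and 994 in the shared fit. Leaving out an array gave 0 to 734, with 0 without mutant 1 or control 2 and 734 without mutant 2. In muscle the 2 calls became 0 without the trend (590 unadjusted), 1 with the mean of probe sets and 1 in the shared fit, and 1 to 2 without an array, the lower without control 1 or control 2. For the difference the 168 became 58 with no filter, 57 as deposited, 8 with median centring, 0 without the trend (1717 unadjusted), 85 with the mean of probe sets, 26 with the block, 345 at 0.1, 1 with the ratio and 10 without mutants 1 and 3, and 12 to 391 without an array, the lowest without liver mutant 1 or muscle mutant 2 and the highest without liver mutant 2.

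The median liver difference of the distal block was 0.28 with an offset of 1, 0.017 with the filter at the 60th percentile and 0.072 with the ratio, and that of the proximal block -0.026 with that filter, -0.10 as deposited and -0.11 with median centring. The muscle median of the near block was 0.067 with the mean of probe sets. Without an array the liver medians ran from -0.12 to -0.028 (proximal), -0.0091 to 0.12 (near) and 0.052 to 0.36 (distal), and the muscle medians from -0.056 to 0.11, -0.076 to 0.0036 and -0.12 to 0.029.

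Signs changed for Csnk1a1 in liver (0.064 as deposited, 0.052 with median centring) and in muscle (0.069 with the mean of probe sets), for Iigp1 in liver (0.16 as deposited, 0.14 with median centring, 0.12 with the mean of probe sets), and in muscle for Snx2 (0.027, 0.048 and, with the ratio, 0.0090), Txnl1 (0.022 and 0.044) and Zfp608 (-0.0010). With the ratio, liver values were 0.43 for Ppargc1b, -0.21 for Pcyox1l and -0.062 for Ppic, and without mutants 1 and 3 they were 0.22 for Ppargc1b and -0.23 for Pcyox1l. Leaving out an array in turn, liver values ran from -0.074 to 0.026 for Csnk1a1, -0.27 to 0.065 for Iigp1, -0.0020 to 0.29 for Pcyox1l, -0.55 to 0.079 for Ppargc1b and -0.13 to 0.054 for Slc12a2. Muscle values ran from -0.16 to 0.011 for Csnk1a1, -0.44 to 0.25 for Malt1, -0.14 to 0.17 for Ppargc1b, -0.056 to 0.33 for Ppic, -0.020 to 0.12 for Sec11c, -0.11 to 0.044 for Slc26a2, -0.079 to 0.11 for Snx2, -0.12 to 0.040 for Txnl1, -0.00018 to 0.12 for Wdr7 and -0.054 to 0.065 for Zfp608. With the replicate block Sec11c in liver had an adjusted p of 0.0561, although the array numbers are not known to pair arrays.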

Other observations

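Splitting the muscle counts by side of Ppargc1b, a split chosen after the values were seen and given with no test, mutant and control arrays did not overlap for 9 of 22 genes (40.9%) at order 21 to 50 on the proximal side, against 3 of 21 (14.3%) on the distal side. At order 51 to 100 the counts were 6 of 24 (25%) on the proximal side and 5 of 37 (13.5%) on the distal side, beside 9.54% of all genes. At order 1 to 20 they were 2 of 14 (14.3%) on the proximal side and 0 of 10 on the distal side. The 9 proximal genes were Snx24, Csnk1g3, Phax, Slc12a2, C330018D20Rik and Iigp1, with all mutant arrays above the controls, and Gramd3, Tex43 and Ctxn3, with all mutant arrays below them. Tex43 differed by -0.79 (SE 0.277) and Ctxn3 by -0.70 (SE 0.209), neither of them called. Among these 9 genes Iigp1 alone passed the adjusted test.

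C330018D20Rik, at order -37, had all mutant arrays above the control arrays in both tissues. It read 138, 172 and 164 in mutant liver, against 84.8, 65.1 and 83.1 in control liver (0.90, SE 0.177, limma adjusted p = 0.0287), and 68.5, 92.9 and 71.8 in mutant muscle, against 53.5, 61.0 and 51.3 in control muscle (0.39, SE 0.160, adjusted p = 0.995). The groups did not overlap in either tissue, which held for 6 of the 306 genes of the chromosome tested in both (1.96%), in the same direction, beside 1.1% of all genes. Only the liver value was called, and that call was lost in 12 of 19 alternatives, with adjusted p up to 0.388.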
